A study of Homo sapiens with 4 samples.

Results

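The ID genes (ID1, ID2, ID3 and ID4) and 6 genes of BMP and TGF-beta signalling and its feedback (SMAD6, SMAD7, BAMBI, BMP4, SKIL and TGFB2) were followed in RPE1 cells after knockdown of SAF-A. They are 10 of the 25027 gene symbols or unmatched identifiers in the deposited tables, and were chosen by symbol. ID3 was included because its level was lower at 48 h than at 24 h under both siRNAs, so its values over time are a description and are used as support for nothing. RPE1 is a telomerase-immortalised human cell line derived from retinal pigment epithelium. The cells were transfected at low density, with a lipid reagent, with 10 nM of a Stealth siRNA duplex. The duplex was either 1 sequence against SAF-A, a nuclear scaffold protein that binds RNA and chromatin and is encoded by HNRNPU, or a commercial negative control. RNA was collected 24 h or 48 h later, which gave a control group and a SAF-A group at each time. Where 4 values stand in a row, they are control and SAF-A at 24 h, then control and SAF-A at 48 h. All groups went through transfection, and there was no untransfected group. Each group had 1 library, so the differences have no replicate check and come with no p-value, and what is labelled SAF-A rests on a single siRNA. Total RNA depleted of ribosomal RNA was read as single-end 50-base reads.

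ID proteins (inhibitors of DNA binding) are helix-loop-helix proteins without the basic region that contacts DNA. They pair with E proteins such as TCF3, TCF4 and TCF12 and keep them off their target genes, and they are best known for holding cells in a proliferating, undifferentiated state. ID1, ID2 and ID3 are textbook direct targets of the BMP branch, in which BMP4 and related ligands activate SMAD1 and SMAD5, while TGFB2 and other TGF-beta ligands mainly act through SMAD2 and SMAD3. SMAD6 and SMAD7 are inhibitory SMADs made in response to these signals. BAMBI is a membrane pseudoreceptor without a kinase domain, and SKIL (SnoN) is a corepressor that sits on SMAD complexes in the nucleus. TGF-beta2 is the predominant TGF-beta ligand of the fluids of the eye.

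The 1500 bases upstream of each deposited transcript start were searched on GRCh37, on both strands, for 3 SMAD-related sequences. These were a GC-rich BMP element spaced from a SMAD site (GGCGNC, any 5 bases, GTCT), GTCTAGAC (a palindromic SMAD element that contains the GTCT of the first) and AGCCAGACA (a CAGA element). The matches next to the 10 genes are shown because they are the only places where these letters occur there. Each stretch is written 5′ to 3′ on the plus strand, with the matched letters in capitals.
ID1 upstream, chr20:30192174-30192203: caggcctGGCGTCTAACGGTCTgagccgct
SKIL upstream, chr3:170074938-170074967: cggccagGGCGCCCCCGCGTCTggcccatc
SMAD6 upstream, chr15:66994551-66994580: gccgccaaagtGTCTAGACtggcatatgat
The match lay 891 bases upstream of the start of ID1 and 105 bases upstream of the start of SMAD6. For SKIL it lay 514 bases upstream of the outermost deposited start. Other deposited transcripts of SKIL start at position 170077411 and had no match in their window. No match overlapped a deposited exon. Over all tested genes the GC-rich element occurred in 1% of 11047 genes and in 0.891% of 14250 windows of this length. The palindrome occurred in 0.978% of genes and 0.842% of windows, and the CAGA element, with no match at the 10 genes, in 2.47% of genes and 2.22% of windows. A match of letters is not a measured binding site.

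Levels are FPKM as deposited, that is fragments scaled for transcript length and for the number of mapped reads, summed over the transcripts of a gene. The values imply 28083822 mapped reads for control 24 h, 30701282 for SAF-A 24 h, 28586051 for control 48 h and 1216740 for SAF-A 48 h. The last library was thus 25.2-fold shallower than the deepest. In it, 1 FPKM stood for 1.26 reads of ID3, against 29.2 to 31.9 reads elsewhere. The reads behind its values are therefore given below for the 10 genes and for part of the other genes. HNRNPU, the targeted gene, stood at 91.2 FPKM in control 24 h and 10.4 in SAF-A 24 h (11.4% of control), and at 84.6 in control 48 h and 9.24 in SAF-A 48 h (10.9%). Both SAF-A libraries were thus low in the targeted RNA. Of 10 markers of retinal pigment epithelium, 3 transcription factors (MITF, OTX2 and PAX6) reached a mean of 1 FPKM, RPE65 was listed at 0 in every library, and the other 6 stayed at or below 0.969 FPKM. Of 8 mesenchymal markers 3 reached a mean of 1 FPKM (VIM, PDGFRB and COL1A1), and the list summed to 2147, 1848, 1588 and 3320 FPKM, nearly all VIM. Of 4 neuronal markers TUBB3 and MAP2 did, and that list summed to 78.9, 70.1, 49.1 and 17.4 FPKM. In SAF-A 48 h, where ID1, SKIL, TGFB2 and SMAD7 were lowest, VIM and PDGFRB were thus higher than in control 48 h (log2 changes 1.06 and 1.44) and TUBB3 lower (-1.48), and their part in the results was not tested. Endothelial markers summed to at most 0.0689 FPKM and blood markers to at most 0.347 FPKM. The keratins KRT8 and KRT18 had a failed estimate in the 3 deep libraries and were not compared.

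ID3 (chr1:23884421-23886285, minus strand, 3 exons, 1 deposited transcript of 1239 bases) was the most abundant of the 10 genes at 24 h. It stood at 66.2 FPKM in control 24 h (deposited 95% interval 63.1 to 69.2), 94.4 in SAF-A 24 h (90.9 to 97.8), 17.0 in control 48 h (15.4 to 18.5) and 22.2 in SAF-A 48 h (13.8 to 30.6, from about 28 reads). Both 24 h libraries lay above both 48 h libraries, and neither 24 h interval overlapped a 48 h interval. From 24 h to 48 h the level was 3.90-fold lower under control siRNA and 4.24-fold lower under SAF-A siRNA. On the log2(FPKM + 1) scale, used for all changes below and one that understates the change of low genes, these were -1.90 and -2.04. Ordered from the most negative change with time, ID3 ranked 9 of 11053 genes tested under control siRNA and 273 under SAF-A siRNA. Within a time point ID3 was higher with SAF-A siRNA, 1.43-fold at 24 h with intervals apart (log2 change 0.51, rank 220 from the highest) and 1.31-fold at 48 h with intervals that overlapped (log2 change 0.37). Neither of these reached the 2-fold (1 on this scale) that counts as changed. In bulk RNA, fewer cells that express a gene and less of its RNA per cell cannot be told apart.

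ID1 (chr20:30193086-30194317, plus strand) took another course at 48 h. It stood at 47.2 FPKM in control 24 h (42.6 to 51.8), 58.5 in SAF-A 24 h (53.4 to 63.6), 32.5 in control 48 h (28.9 to 36.2) and 5.92 in SAF-A 48 h (0 to 13.5, from about 6 reads). SAF-A 24 h was the highest library and SAF-A 48 h by far the lowest, and all 4 intervals were apart from each other. With SAF-A siRNA the level was 1.24-fold that of control at 24 h (log2 change 0.30) and 18.2% of control at 48 h (log2 change -2.28). Combining the outer bounds, the 48 h level lay between 0 and 46.8% of control. With time ID1 had a log2 change of -0.52 under control siRNA, short of 2-fold, and of -3.11 under SAF-A siRNA, where it ranked 31 from the lowest.

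ID2 and ID4 were scarcely present. ID2 (chr2:8822113-8824583) stood at 0.614 FPKM in control 24 h, 0.870 in SAF-A 24 h and 0.332 in control 48 h, from about 20, 31 and 11 reads, and was listed at 0 in SAF-A 48 h. At that depth 3 reads, the limit a count of 0 allows, would be 2.12 FPKM, so a level like that of the other libraries was not detectable there. These limits and the deposited intervals cover counting and assignment error within a library only. ID4 (chr6:19837601-19842431) rested on about 1 read in control 24 h and 2 in SAF-A 24 h and was listed at 0 in both 48 h libraries. The 2 genes had a mean under 1 FPKM and did not enter the count of changes.

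**Figure D1:**
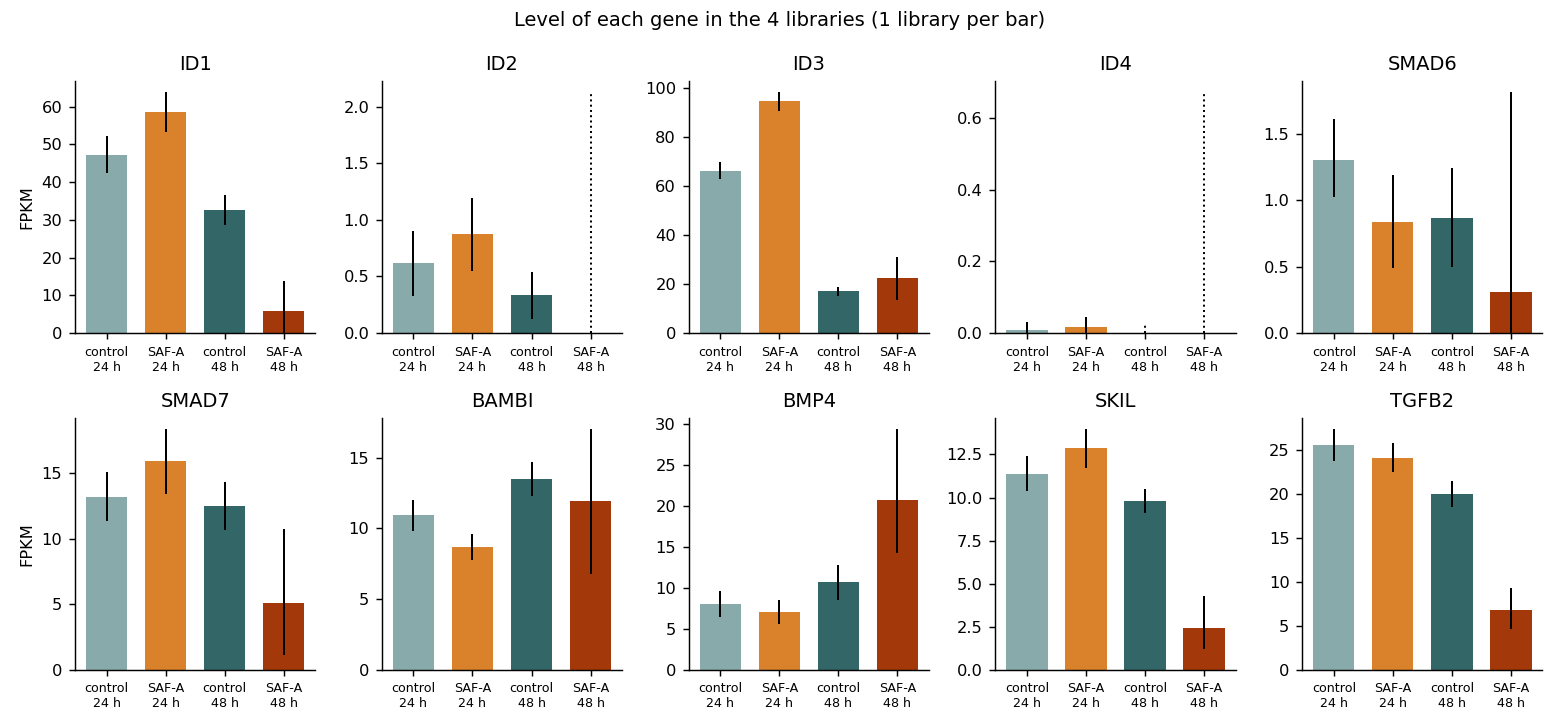
FPKM (vertical axis, own scale per gene) of the 10 genes in the 4 libraries, 1 bar per library. Solid lines are the deposited 95% intervals summed over transcripts, and dotted lines show what 3 reads would give where a gene is listed at 0. ID3 is lower in both 48 h libraries, while ID1, SMAD7, SKIL and TGFB2 are lowest in SAF-A 48 h and BMP4 is highest there.

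The ratio of ID1 to ID3 within a library does not depend on how libraries are scaled to each other. It was 0.714 in control 24 h (0.616 to 0.821 from the outer bounds), 0.620 in SAF-A 24 h (0.546 to 0.700), 1.92 in control 48 h (1.56 to 2.34) and 0.266 in SAF-A 48 h (0 to 0.978). ID1 thus exceeded ID3 in control 48 h and was below it in the other 3 libraries. The higher ratio in control 48 h draws on the fall of ID3 with time, for which ID3 was chosen, and is no separate result. Both genes are single short loci, and ID1 has 2 deposited transcripts, of 2 exons (NM_002165) and of 1 exon with the intron kept (NM_181353). The unspliced form made up 13.5% of ID1 in control 24 h, 13.4% in SAF-A 24 h and 12.2% in control 48 h. In SAF-A 48 h it was 18.6%, a share that rested on about 1 read.

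The ligands BMP4 and TGFB2 went in opposite directions at 48 h. BMP4 (chr14:54416455-54423554, minus strand, 3 deposited transcripts) stood at 8.01 FPKM in control 24 h (6.55 to 9.51), 7.06 in SAF-A 24 h (5.76 to 8.40), 10.7 in control 48 h (8.66 to 12.7) and 20.8 in SAF-A 48 h (14.4 to 29.4, about 44 reads). SAF-A 48 h was the only library whose interval was apart from all others. There BMP4 was 1.95-fold above control (log2 change 0.90), just under the 2-fold line, and 2.95-fold above SAF-A 24 h (log2 change 1.44), past it. TGFB2 (chr1:218518676-218617961, plus strand, transcripts of 7 and 8 exons) stood at 25.6 FPKM in control 24 h (23.9 to 27.3), 24.1 in SAF-A 24 h (22.6 to 25.6), 20.0 in control 48 h (18.6 to 21.3) and 6.82 in SAF-A 48 h (4.78 to 9.13, about 47 reads). The 24 h libraries overlapped, control 48 h lay a little lower, and SAF-A 48 h was at 34.1% of control 48 h (log2 change -1.42). The ratio of BMP4 to TGFB2 was 0.313 in control 24 h, 0.293 in SAF-A 24 h and 0.535 in control 48 h. It was 3.05 in SAF-A 48 h (1.58 to 6.14 from the outer bounds), the only library in which BMP4 exceeded TGFB2.

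Of the intracellular inhibitors, SKIL and SMAD7 were lower in SAF-A 48 h than in any other library. SKIL (chr3:170075473-170114637, plus strand) stood at 11.4 FPKM in control 24 h (10.4 to 12.4), 12.9 in SAF-A 24 h (11.8 to 13.9), 9.80 in control 48 h (9.17 to 10.5) and 2.40 in SAF-A 48 h (1.27 to 4.24, about 19 reads). That is 24.5% of control at 48 h (log2 change -1.67), against a log2 change of 0.16 at 24 h with overlapping intervals. SMAD7 (chr18:46446223-46477081, minus strand, 4 deposited transcripts) stood at 13.2 FPKM in control 24 h (11.4 to 15.0), 15.9 in SAF-A 24 h (13.5 to 18.3), 12.5 in control 48 h (10.7 to 14.3) and 5.10 in SAF-A 48 h (1.18 to 10.7, about 14 reads). The first 3 libraries overlapped, and the SAF-A 48 h level was 40.9% of control 48 h (log2 change -1.14), with intervals that only just missed each other. SMAD6 (chr15:66994674-67074337) was at 1.30, 0.840 and 0.870 FPKM in control 24 h, SAF-A 24 h and control 48 h, with overlapping intervals. In SAF-A 48 h it rested on about 1 read, and its mean was too low to be tested.

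BAMBI, the membrane inhibitor (chr10:28966424-28971868, plus strand, 3 exons), had the smallest range of changes among the 7 genes tested, from -0.30 to 0.42. It stood at 10.9 FPKM in control 24 h (9.90 to 11.9), 8.66 in SAF-A 24 h (7.80 to 9.52), 13.5 in control 48 h (12.4 to 14.6) and 11.9 in SAF-A 48 h (6.82 to 17.0, about 22 reads). It was lower with SAF-A siRNA at 24 h (log2 change -0.30, intervals apart) and higher with time under control siRNA (0.28, intervals apart). At 48 h the siRNAs overlapped (-0.17). No comparison reached 2-fold for BAMBI.

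**Figure D2:**
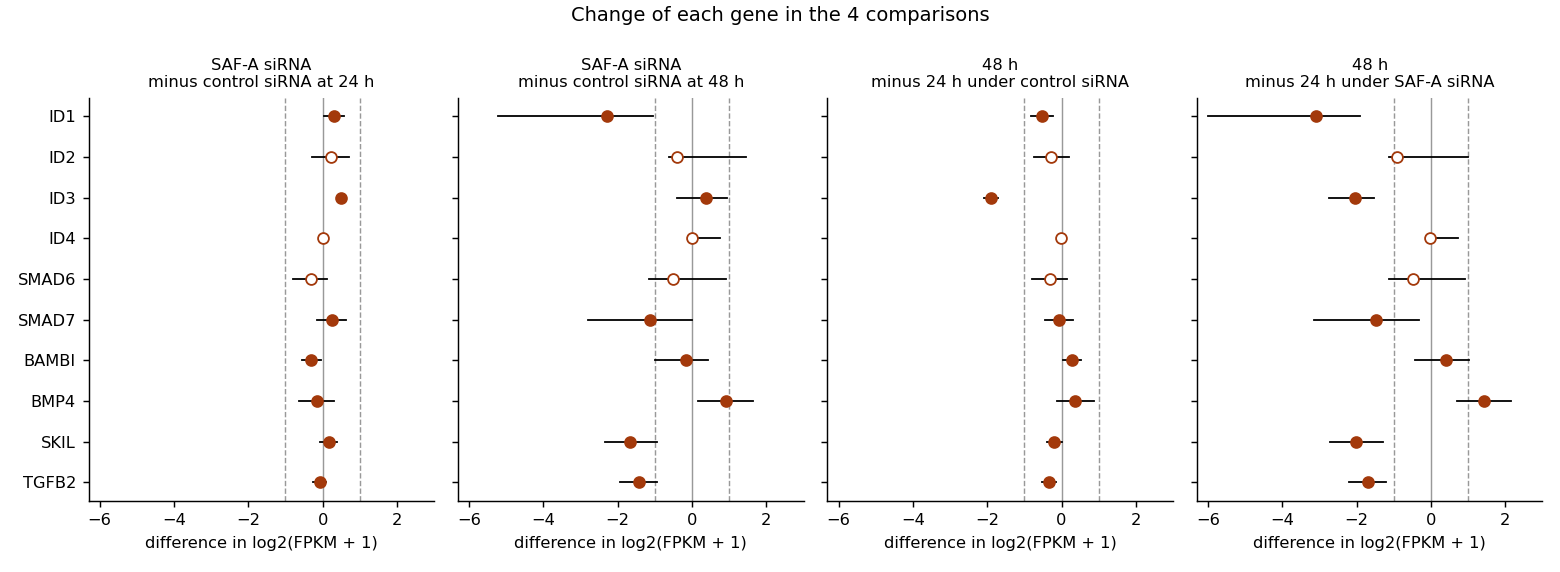
Difference in log2(FPKM + 1) (horizontal axis) of each gene in the 4 comparisons. Points are the changes, lines run between the most extreme combinations of the interval bounds, open points are genes with a mean under 1 FPKM, and dashed lines mark 2-fold. At 24 h every point lies inside the dashed lines, and at 48 h ID1, SMAD7, SKIL and TGFB2 lie to the left of them.

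Counts were set beside all 11053 genes whose mean level reached 1 FPKM and whose spliced length reached 300 bases, a limit that 7 of the 10 passed. At 24 h none of the 7 was at least 2-fold higher or lower with SAF-A siRNA, where 0.389% of all genes tested were higher and 0.244% lower. At 48 h none was 2-fold higher and 4 (ID1, SKIL, TGFB2 and SMAD7) were lower, where 14.3% of all genes were higher and 18.5% lower. Between the control libraries, ID3 alone was lower at 48 h, where 0.425% of all genes were lower and 0.561% higher. Between the SAF-A libraries, 5 were lower at 48 h (ID1, ID3, SKIL, TGFB2 and SMAD7), where 16% of all genes were lower, and BMP4 was higher, where 15.5% were. Of all genes tested, 22 (0.199%) were at least 2-fold lower with time under both siRNAs, and ID3, chosen for this, was the 1 among the 7. A change of 2-fold was thus common in both comparisons that use SAF-A 48 h and rare in the others. Both share the SAF-A 48 h library, and its depth cannot be told apart from its siRNA and time.

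The median log2 change of the 7 genes was 0.16 at 24 h with SAF-A siRNA, beside -0.07 over all genes tested, and -1.14 at 48 h, beside -0.11. With time it was -0.20 under control siRNA, beside 0.03, and -1.68 under SAF-A siRNA, beside -0.01. Both medians with time include ID3, which was chosen for its fall with time, and so draw in part on that choice. Rescaling to TPM (each library brought to the same total over genes of at least 300 bases) moved the median of all genes to -0.38 at 48 h and to -0.25 between the SAF-A libraries. Relative to the median of all genes, the 48 h changes on the FPKM scale were -2.17 for ID1, -1.56 for SKIL, -1.31 for TGFB2, -1.03 for SMAD7, -0.06 for BAMBI, 0.48 for ID3 and 1.01 for BMP4. On the TPM scale they were -2.22, -1.69, -1.34, -1.07, -0.02, 0.53 and 1.09 in the same order.

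**Figure D3:**
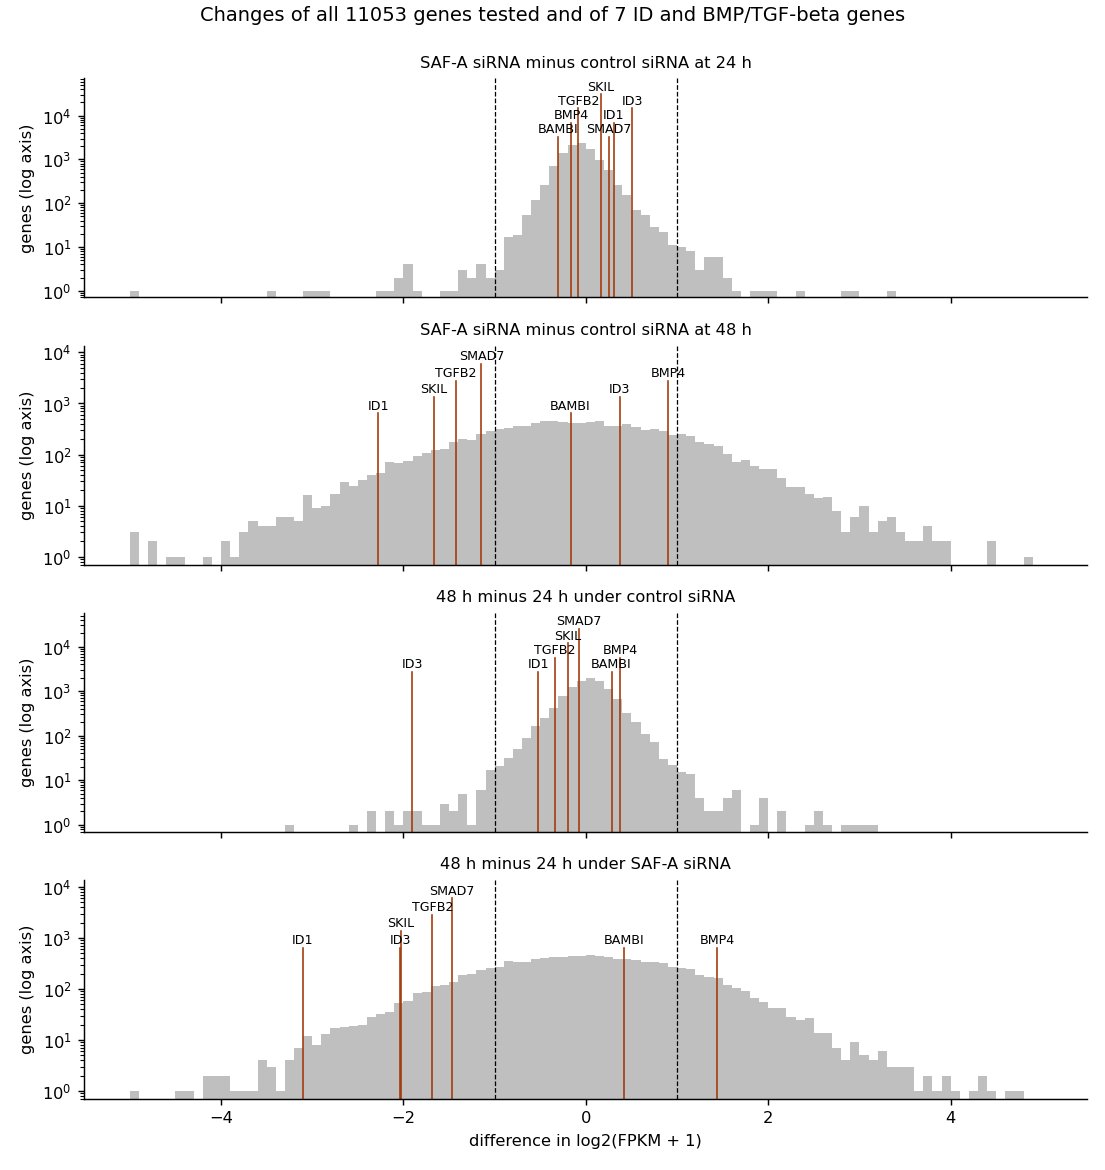
Number of genes (vertical log axis) by difference in log2(FPKM + 1) for all 11053 genes tested, with values beyond 5 drawn at the edge. Vertical lines mark the 7 tested genes of interest and dashed lines mark 2-fold. Under control siRNA ID3 stands in the thin left tail at -1.90, while both comparisons with SAF-A 48 h are wide, with ID1 farthest left of the 7 genes at -2.28 and -3.11.

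The order of the 10 levels changed between libraries. In control 24 h and SAF-A 24 h it ran from ID3 through ID1 and TGFB2 to SMAD7, each interval apart from the next. SMAD7 and SKIL overlapped in both, as did SKIL and BAMBI in control 24 h and BAMBI and BMP4 in SAF-A 24 h. In control 48 h ID1 came first, then TGFB2 and ID3, all apart, and BAMBI, SMAD7, BMP4 and SKIL followed with each overlapping its neighbour. The lower place of ID3 there is part of its choice for a fall with time. In SAF-A 48 h ID3 and BMP4 came first, and every neighbouring pair overlapped at that depth.

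Several of these genes have more than 1 deposited transcript, and the split among them was unstable where transcripts overlap. For SKIL, NM_005414 took 60.4% in control 24 h and 83.4% in SAF-A 24 h but 0.313% in control 48 h, where NM_001248008 took 99.7%. In SAF-A 48 h all of about 19 reads were assigned to NM_001145098, a form near 0 in the other libraries. For TGFB2, the longer NM_001135599 took 28.8% in control 24 h, 11.5% in SAF-A 24 h, 11.6% in control 48 h and 0.0967% in SAF-A 48 h. BMP4 was split between NM_001202 and NM_130850 in the deep libraries (45.3% and 54.7% in control 24 h), and its 44 reads in SAF-A 48 h all went to NM_001202. The summed level of a gene depends little on this split as long as its transcripts are of similar length. The transcripts of BMP4 run from 1732 to 1941 bases and those of SMAD7 from 2292 to 3087 bases. Their summed levels, and changes near the 2-fold line, thus depend on the split in part.

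The other genes of the pathway were taken from lists by role, 97 genes besides the 10, of which 56 were tested. With SAF-A siRNA 1 was at least 2-fold higher and none lower at 24 h (1.79% and 0%, beside 0.389% and 0.244% of all genes tested). At 48 h 8 were higher and 12 lower. On the TPM scale 7 were higher and 19 lower, but those were counted over a set not limited to these 56 genes. The counts of 12 and 19 thus do not differ by the rescaling alone. The 48 h counts on the FPKM scale are 14.3% and 21.4% of the 56, beside 14.3% and 18.5% of all genes tested. On the TPM scale 10.3% of 12392 genes tested were higher at 48 h and 29.5% lower. With time under control siRNA none was higher and 2 were lower (0% and 3.57%, beside 0.561% and 0.425% of all genes tested). Under SAF-A siRNA 2 were higher with time and 16 lower (3.57% and 28.6%, beside 15.5% and 16% of all genes tested). Their median changes were 0.03, -0.10, -0.02 and 0.02, beside -0.07, -0.11, 0.03 and -0.01 over all genes tested.

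Among 12 BMP ligands, BMP4, GDF6 and BMP2 were tested. GDF6 stood at 23.9 FPKM in control 24 h, 21.1 in SAF-A 24 h and 20.2 in control 48 h, above BMP4 in each. In SAF-A 48 h it was at 0.235 (upper bound 0.705), about 1 read, against about 2026 reads in control 48 h. Among TGF-beta and activin ligands 3 of 4 tested were at least 2-fold lower at 48 h with SAF-A siRNA, beside 18.5% of all genes tested. Besides TGFB2 these were INHBA, the activin A subunit, and GDF11. INHBA was at 25.9, 31.1, 23.3 and 2.92 FPKM, the last from about 7 reads. GDF11 was at 2.40, 2.45, 1.85 and 0.416 FPKM, the last from about 2 reads. In the same library BMP4 was higher and each of these ligands lower than in the other 3.

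Receptors were in part higher with SAF-A siRNA. TGFBR1, a type I receptor for TGF-beta, stood at 4.69 FPKM in control 24 h, 9.74 in SAF-A 24 h, 1.98 in control 48 h and 11.3 in SAF-A 48 h (about 86 reads), log2 changes of 0.92 at 24 h and 2.04 at 48 h with intervals apart at both. ACVR1, a type I receptor for BMPs, had changes of 0.38 and 1.32, from 3.45 to 4.79 FPKM at 24 h and from 3.10 to 9.27 at 48 h. Of the type II receptors none of 4 tested reached 2-fold in any comparison. TGFBR2 was at 16.4, 22.5, 19.0 and 36.4 FPKM and BMPR2 at 2.21, 2.52, 1.95 and 1.52. Both tested co-receptors passed 2-fold at 48 h in opposite directions, with TGFBR3 (betaglycan) at 2.51 FPKM in control and 15.3 in SAF-A and the BMP co-receptor RGMB at 54.3 and 16.0. Over all genes tested, 14.3% were at least 2-fold higher and 18.5% lower with SAF-A siRNA at 48 h. With time under SAF-A siRNA 15.5% were higher and 16% lower.

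SMAD5, a transducer of BMP signals, was the 1 pathway gene at least 2-fold higher on the log2(FPKM + 1) scale with SAF-A siRNA at 24 h, where TGFBR1, at 0.92, fell just short. It stood at 7.32 FPKM in control 24 h (6.60 to 8.05) and 18.0 in SAF-A 24 h (16.6 to 19.4), and at 2.77 in control 48 h (2.36 to 3.20) and 11.7 in SAF-A 48 h (9.26 to 14.7, about 97 reads). Both SAF-A libraries lay above both control libraries, with log2 changes of 1.19 at 24 h and 1.75 at 48 h. Like ID3 it was at least 2-fold lower at 48 h under control siRNA (-1.14). At 48 h SMAD2 was higher with SAF-A siRNA (6.43 to 16.4 FPKM, log2 change 1.23). SMAD3 was lower (13.0 to 1.91 FPKM, -2.27, from about 14 reads). The ubiquitin ligase SMURF2, which targets receptors and SMADs, was higher at 48 h (49.8 to 142 FPKM, 1.49), and the corepressor TGIF2 was lower (7.94 to 1.39 FPKM, -1.90, from about 5 reads).

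Secreted antagonists and latency proteins had 10 tested genes. FST (follistatin), which binds activins, followed time and not siRNA, at 46.8 FPKM in control 24 h, 44.4 in SAF-A 24 h, 15.7 in control 48 h and 14.0 in SAF-A 48 h (about 29 reads). The intervals overlapped within each time point and were apart between times. FSTL3, a related activin antagonist, was at 37.6, 34.1, 20.0 and 9.62 FPKM. TWSG1, a BMP-binding protein, was at 22.6, 16.0, 14.2 and 2.31 FPKM, the last from about 10 reads. The latency protein LTBP2 was at 3.84, 3.59, 2.50 and 1.28 FPKM, the last from about 13 reads.

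Of 13 genes tested that are known to respond to TGF-beta, 2 were at least 2-fold higher and 3 lower with SAF-A siRNA at 48 h, beside 14.3% and 18.5% of all genes tested. CCN2 went from 93.0 FPKM in control 48 h to 14.6 in SAF-A 48 h (log2 change -2.59) and the matrix protein THBS1 from 309 to 101 (-1.60). The actin-binding protein TAGLN went from 181 to 365 (1.01). On the TPM scale the change of TAGLN was 0.77, short of 2-fold. ACTA2, smooth muscle actin, went from 11.4 to 97.6 (3.00). Of the other BMP-responsive genes, MSX1 alone was tested, at 1.64, 1.77, 1.80 and 1.90 FPKM. The last value rested on about 4 reads, with a deposited interval of 0 to 3.79.

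The E proteins with which ID proteins pair stayed within 2-fold in all comparisons. TCF12 was at 16.0, 18.7, 14.9 and 20.8 FPKM. TCF3 and TCF4 had log2 changes of -0.27 and 0.01 at 24 h and of 0.09 and 0.13 at 48 h with SAF-A siRNA. HES1, a related repressor, went from 3.67 FPKM in control 48 h to 0.654 in SAF-A 48 h, the last from about 1 read.

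**Figure D4:**
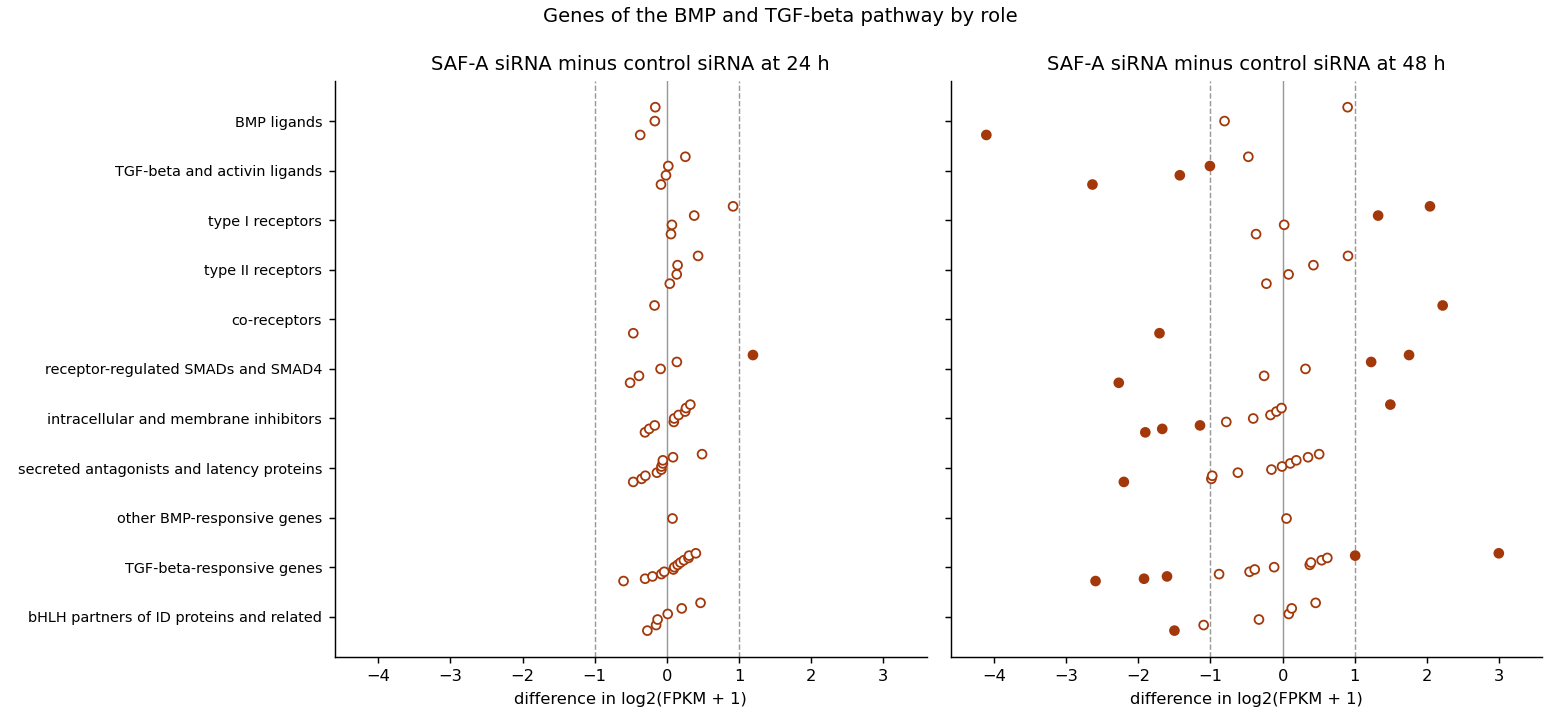
Difference in log2(FPKM + 1) (horizontal axis) between SAF-A and control siRNA, at 24 h (left) and 48 h (right), for the tested genes of each role, the 10 genes of interest included where they belong to a role. Each point is 1 gene, filled where the change was at least 2-fold with deposited intervals apart, and dashed lines mark 2-fold. SMAD5 is the 1 filled point at 24 h, and at 48 h filled points lie on both sides.

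The profile of ID3 over the 4 libraries was compared with those of 7346 genes averaging 5 FPKM or more, by the Euclidean distance between log2 values centred on each gene's own mean. The nearest was FCF1, a factor of ribosomal RNA processing, at a distance of 0.66, followed by FST at 0.69 and the cytokine IL11 at 0.79, beside a median of 2.17 over all genes compared. FCF1 (chr14:75179850-75203390) stood at 11.0, 16.7, 4.53 and 4.99 FPKM. IL11 (chr19:55875750-55881831) stood at 15.9, 23.2, 7.88 and 5.93 FPKM. Like ID3, all 3 were lower in both 48 h libraries than in both 24 h libraries. They were picked for likeness to ID3, so this is part of that choice and no separate result. ID1 lay at 1.88, with 1399 genes nearer to ID3. These distances rest on 4 values per gene and carry no test.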

How the data were processed

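RNA-seq libraries from 4 conditions of RPE1 cells were grouped by their titles. Per the submitters' processing notes, TopHat2 2.0.10, Bowtie2 2.1.0 and Cufflinks 2.2.1 and the build hg19 were used. The authors deposited FPKM with 95% bounds per RefSeq accession (47338 values per library), and per the file headers each accession is its own gene. Strand use and the handling of reads that map to several places are not given in the sources used here. Reads of a gene and of an antisense or overlapping gene therefore cannot be told apart. The transcript files also hold a coverage value, in another unit than FPKM, which the authors deposited and which served for depth.

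Accessions were joined to symbols through a RefSeq table of GRCh38.p14, used for names only (97.1% matched), and FPKM and bounds were summed per symbol. Bounds summed in this way overstate the error of the sum. Mapped reads follow from the ratio of coverage to FPKM, which was the same throughout a library. Estimated reads are FPKM times effective length (fragments of 200 ± 80 bases, assumed) times mapped reads. Of low values in genes with 1 transcript, 72.3% to 82.6% lay within 0.1 of a whole number of reads. No count model was fitted. On GRCh37, 98.8% of 241693 deposited introns of tested genes began with GT and ended with AG.

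Changes are differences in log2(FPKM + 1), counted from 2-fold, in genes of at least 300 bases with a mean of at least 1 FPKM. No test was run, for lack of replicates. For a gene listed at 0 the upper bound was set to 3 reads, and genes whose estimate failed were never called apart. Named are the 10 genes, HNRNPU, up to 4 genes of each role list by mean FPKM that changed 2-fold with intervals apart in any comparison (at least 2 per list where tested), and the 3 genes nearest to ID3 outside chromosome 8. Of these, 1 gene is not reported here. TCF3, TCF4 and the markers were named after their values were seen. The 10 genes and the lists were chosen with earlier results of these data known. Python 3.11.15, numpy 2.4.6, pandas 2.3.3 and scipy 1.17.1 were used.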

Additional observations from a re-analysis of the deposited data

Results flagged for a closer look

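ID1 differed from control in opposite ways at the 2 time points, with deposited intervals apart at both: its log2 change with SAF-A siRNA was 0.30 at 24 h and -2.28 at 48 h. The difference between the time points was not tested, for lack of replicates. The 48 h value rests on about 6 reads in a library of 1216740 mapped reads, against about 764 reads in control 48 h. The part of depth or of this single culture in the result was not tested.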

How the results depend on the processing

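Alternatives were a pseudocount of 0.1 FPKM, no filter on low FPKM, a stricter one at 5 FPKM, no minimum length, centring on the median, rescaling to TPM, a 1.5-fold line, intervals that must not overlap and, chosen after the data were seen, a filter on the mean of the 3 deep libraries. Of the counts of the 10 genes under these, all but 1 stayed within 1.5 times the reported one: at 1.5-fold, 1 gene (BMP4) instead of none was higher with SAF-A siRNA at 48 h. Of the other pathway genes, 12 of 56 tested were 2-fold lower with SAF-A siRNA at 48 h on the FPKM scale. On the TPM scale 19 were, counted over a set not limited to those 56, so the difference is not due to rescaling alone. Over all genes tested, 18.5% of 11053 were lower on the FPKM scale and 29.5% of 12392 on the TPM scale. No change past 2-fold reversed. With TPM HNRNPU stood at 11.1% and 9.28% of control at 24 h and 48 h. Of 120 single changes 14 moved beyond their bounds, all of ID2, ID4 or SMAD6, the genes of lowest level. Depth limits every value of SAF-A 48 h. No paired analysis was possible because each group has 1 library and the labels give no replicate numbers.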
